A study of Triticum aestivum with 3 samples.

Results

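The miR398 and miR528 families comprised 15 of the 1896 distinct small RNA sequences measured in wheat (Triticum aestivum) seedling leaves, 12 of miR398 and 3 of miR528. The members were picked by the family number in the miRNA name and not by their values, although earlier results of these data were known. They were listed in 16 of the 1969 rows of the table, since ath-miR398b-3p_1ss20TG also carries a ppe name for the same sequence. The groups were leaves given dithiothreitol (DTT) with tauroursodeoxycholic acid (TUDCA), leaves given DTT alone, and control leaves, all after 2 days. DTT reduces the disulfide bonds that proteins form in the endoplasmic reticulum, and TUDCA, a bile acid, helps proteins fold there. The doses and the numbers of plants were not stated. Each treatment is 1 sample read as 2 RNA pools, both mixed from 3 biological replicates, so the pools were treated as repeat runs and no p-value was computed. All values are levels in normalized reads as deposited, unless another scaling is named. The tissue was bulk leaf, in which fewer cells of a type and less RNA per cell cannot be told apart, and the table holds no messenger RNA with which the tissue or the targets could be checked.

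A plant microRNA is cut from a hairpin as a duplex of a mature strand, which guides silencing of messenger RNAs, and a passenger strand, which is mostly lost. In Arabidopsis, miR398 represses copper/zinc superoxide dismutases and their copper chaperone, and it accumulates when copper is scarce, together with miR397 and miR408, under the copper-responsive regulator SPL7. miR528 is known from monocots and in rice represses an ascorbate oxidase, another copper enzyme of redox balance.

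The sequences below carry the comparison, with the seed (bases 2 to 8 from the 5′ end) in capitals. The first 5 are mature miR398 forms, which all have the seed GTGTTCT, and no other entry of the table has it.
tae-miR398: tGTGTTCTcaggtcgcccccg
osa-miR398a_1ss21TG: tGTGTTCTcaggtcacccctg
osa-miR398a: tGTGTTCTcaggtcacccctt
osa-miR398a_R-1: tGTGTTCTcaggtcacccct
ath-miR398b-3p_1ss20TG: tGTGTTCTcaggtcaccccgg
ata-miR398f-5p_L+1R-1, passenger arm: aGGGTCGAactgagaacacat
ata-miR398g-5p, passenger arm: gGGTCGAGctgggaacacatg
tae-MIR398-p5, passenger arm: cCTGCGGGgtcgaactgggaa
ath-miR398b-5p, passenger arm: aGGGTTGAtatgagaacacac
ata-miR528-5p, mature: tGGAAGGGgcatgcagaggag
ata-miR528-3p, passenger arm: cCTGTGCCtgcctcttccatt

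A name gives the species in which a form was registered (tae wheat, ata Aegilops, osa rice, ath Arabidopsis) and its changes from that form. Of the 15 members, 6 had tae or ata names and 9 had other prefixes. Counted from the 5′ end, tae-miR398 differs from osa-miR398a_1ss21TG by G15A and C20T, both outside the seed. By its name, ath-miR398b-3p_1ss20TG carries the change T20G. Undoing that change gives exactly the sequence listed as osa-miR398a_1ss21TG, so the rice-named form is also the registered Arabidopsis form. The passenger sequences ata-miR398f-5p_L+1R-1 and ath-miR398b-5p differ at 4 positions, by C6T, A9T, C10A and T21C.

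The deposited positions set the forms on different chromosomes of the TGACv1 wheat assembly. tae-miR398 and tae-MIR398-p5 share a precursor of 120 nt on the plus strand of scaffold 220641 of chromosome 3B, from 245824 to 245943. ata-miR398f-5p_L+1R-1 lies on the minus strand of scaffold 250736 of 3DL, from 53953 to 54046, and ata-miR398g-5p on the plus strand of scaffold 250287 of 3DL, from 34278 to 34387. The rice-named mature forms were placed on group 5 chromosomes, all on the plus strand. osa-miR398a_1ss21TG lies on scaffold 375692 of 5AL from 42722 to 42898, osa-miR398a on scaffold 407846 of 5BL from 19752 to 19928, and osa-miR398a_R-1 on scaffold 434101 of 5DL from 58740 to 58932. Both arms of miR528 lie on the minus strand of scaffold 321146 of 4BL, from 56029 to 56134. ath-miR398b-5p and ath-miR398b-3p_1ss20TG have no position in the table. Genes near the precursors were not looked up.

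The pools differ in depth and in makeup. The values imply between 330652 and 1211765 reads per pool over the distinct sequences. The members took between 0.257% and 0.629% of the normalized reads of a pool. DTT+TUDCA pool 1 stands apart. Among the tae- and ata-named entries that are not members, pool 1 was higher than pool 2 for 142 of 154 with DTT+TUDCA, 16 of 112 with DTT and 19 of 104 in control. The median of their pool 1 to pool 2 ratio was 13.0 with DTT+TUDCA, 0.411 with DTT and 0.515 in control. Sequences of 19 nt or less took 2.97% of DTT+TUDCA pool 1, and 1.20% to 2.29% of the other 5 pools. The part of these differences in the member values was not tested. Levels below are given by pool, and the main DTT+TUDCA calls of the tae and ata members with and without DTT+TUDCA pool 1. The correlations, the rescaled ratios and the counts of other copper families are given with all pools only.

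The wheat mature form tae-miR398 was higher in all 4 pools of treated leaves than in both control pools. Its level was 812 and 60.8 with DTT+TUDCA, 78.4 and 148 with DTT, and 14.1 and 20.4 in control. The implied reads were 762 and 118, 75 and 205, and 9 and 12, in the same order of treatments, so the control level is the least precise. The exact 95% Poisson interval of the level, which covers counting error only, was 50.4 to 72.9 in DTT+TUDCA pool 2 and 10.5 to 35.6 in control pool 2, which did not overlap. The rank of tae-miR398 within a pool does not depend on scaling between pools. Among the 261 tae- and ata-named entries it ranked 43 and 46 with DTT+TUDCA, 45 and 52 with DTT, and 88 and 97 in control.

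ata-miR398f-5p_L+1R-1, a passenger-arm sequence, also separated the treated from the control pools. It was at 1369 and 105 with DTT+TUDCA, 95.1 and 278 with DTT, and 12.6 and 8.49 in control. Its rank among the tae- and ata-named entries was 34 and 39 with DTT+TUDCA, 40 and 40 with DTT, and 93 and 126 in control. The pools of treated leaves did not overlap with the control pools.

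ata-miR528-5p, the mature form of miR528, was at 935 and 57.2 with DTT+TUDCA, 73.1 and 204 with DTT, and 17.3 and 11.9 in control. Its rank was 41 and 47 with DTT+TUDCA, 47 and 45 with DTT, and 83 and 114 in control. It thus stood higher within each of the 4 treated pools than within either control pool, in level and in rank.

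The other passenger forms with tae or ata names were rare. tae-MIR398-p5, from the precursor of tae-miR398, was at 29.8 and 1.03 with DTT+TUDCA, 4.18 and 5.04 with DTT, and listed at 0 and 3.39 in control. ata-miR398g-5p was at 25.6 and 2.58 with DTT+TUDCA, listed at 0 and 2.88 with DTT, and listed at 0 in both control pools. ata-miR528-3p was at 26.6 and 1.55 with DTT+TUDCA, listed at 0 and 5.04 with DTT, and listed at 0 in both control pools. These 3 forms held at most 28 implied reads in any pool. Values worth 1 read are nearly absent from the table (2 to 7 per pool, against 147 to 214 worth 2 reads), so a listed 0 sets no upper limit and no fold is given against it.

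The most abundant miR398 forms in control leaves had other prefixes, and they did not show the order of the wheat forms. osa-miR398a_1ss21TG was at 539 and 1454 with DTT+TUDCA, 1266 and 379 with DTT, and 753 and 1466 in control. Its treatments overlap throughout. ath-miR398b-5p was at 343 and 822 with DTT+TUDCA, 530 and 401 with DTT, and 753 and 920 in control. Its DTT pools lay below both control pools, and its DTT+TUDCA pools overlapped with control.

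osa-miR398a, from which osa-miR398a_1ss21TG differs by T21G, was at 79.9 and 422 with DTT+TUDCA, 43.9 and 91.4 with DTT, and 25.1 and 73.0 in control. osa-miR398a_R-1, shorter by its last base, was at 66.1 and 135 with DTT+TUDCA, 85.7 and 36.0 with DTT, and 81.6 and 119 in control. ath-miR398b-3p_1ss20TG was at 16.7 and 63.3 with DTT+TUDCA, 59.0 and 20.2 with DTT, and 27.5 and 49.2 in control. Of these 3 forms only osa-miR398a had both DTT+TUDCA pools above both control pools. The nearest of these values, 79.9 and 73.0, had overlapping Poisson intervals, of 62.9 to 100 and 52.8 to 98.3. Reads of sequences this alike can be divided between names, which was not tested. The implied reads of ath-miR398b-3p_1ss20TG included fractions. Those of osa-miR398a_1ss21TG, osa-miR398a and osa-miR398a_R-1 were whole in every pool.

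The remaining 4 members were low. sbi-MIR398-p3_2ss5GA18AG, of 18 nt, was between 7.20 and 26.6 in the 6 pools. mtr-MIR398a-p5_1ss11AC was at 2.13 and bdi-miR528-5p_R+1 at 4.26 in DTT+TUDCA pool 1 and listed at 0 elsewhere. cpa-miR398 was at 1.55 in DTT+TUDCA pool 2 and listed at 0 elsewhere. bdi-miR528-5p_R+1 is ata-miR528-5p with 1 base more at its 3′ end.

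**Figure D1:**
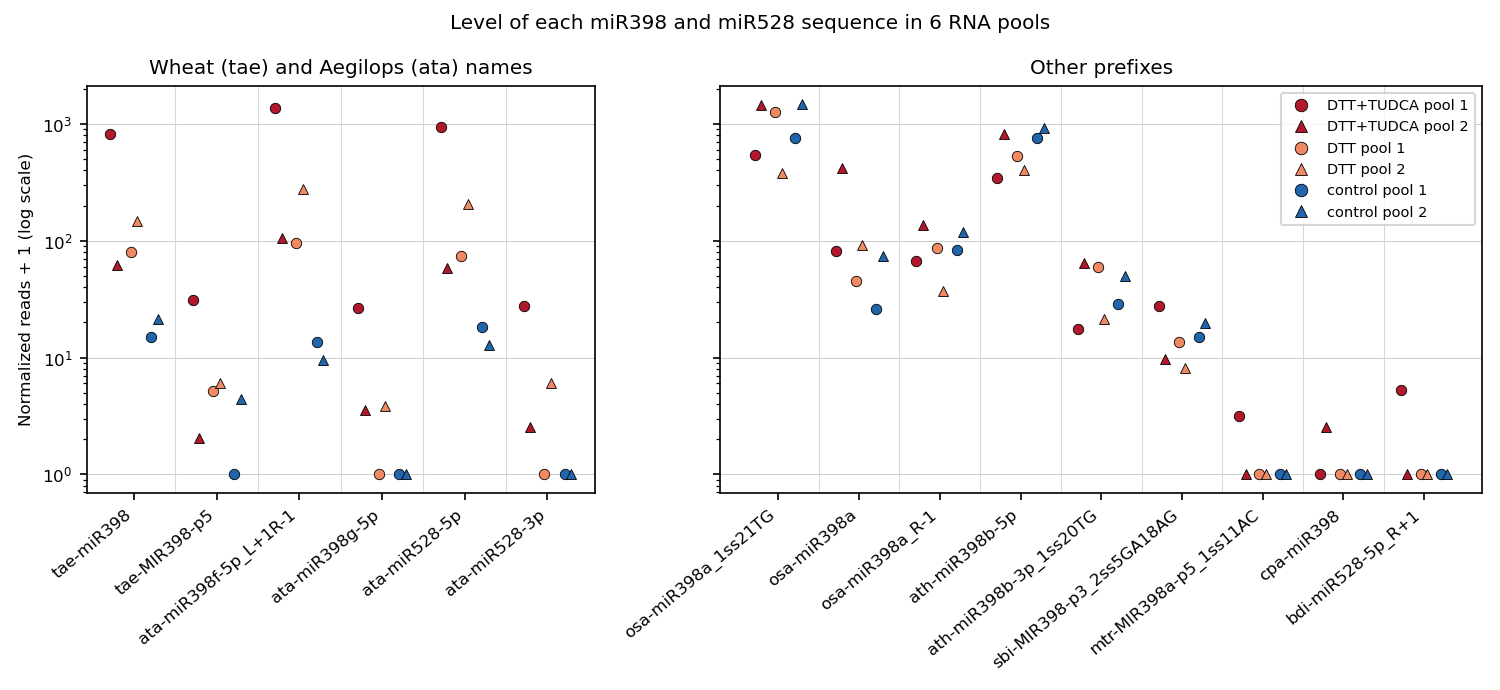
Normalized reads plus 1, on a log scale, of the 15 sequences in each RNA pool, with tae and ata names on the left panel and other prefixes on the right; circles are pool 1, triangles pool 2, and a value listed at 0 stands at 1. The treated pools of tae-miR398 (60.8 and above) lie above its control pools (20.4 and below), while those of osa-miR398a_1ss21TG (379 to 1454) overlap with its control pools (753 and 1466).

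Summed over names, the 4 tae and ata entries of miR398 took 67.6% and 5.51% of the family's normalized reads with DTT+TUDCA, 8.17% and 31.7% with DTT, and 1.59% and 1.20% in control. The pools thus differed in which miR398 forms they held as well as in how much. A name from another species can stand for a wheat sequence or for reads of another plant, and which of these holds for ath-miR398b-5p and the rice-named forms was not tested. The 165 non-member sequences with Arabidopsis species names (ath or aly) and no wheat position took 2.83% and 7.27% of the pools with DTT+TUDCA, 6.35% and 6.69% with DTT, and 5.30% and 4.47% in control. Their median pool 1 to pool 2 ratio was 0.463 with DTT+TUDCA, 1.22 with DTT and 1.40 in control. In all 3 groups this ran opposite to the tae- and ata-named entries, so that shares between wheat-named and other forms also carry any such difference in makeup. The 4 tae and ata entries of miR398 summed to 2236 and 170 with DTT+TUDCA, 178 and 433 with DTT, and 26.7 and 32.2 in control. The 8 miR398 entries with other prefixes summed to 1074 and 2907 with DTT+TUDCA, 1997 and 934 with DTT, and 1655 and 2646 in control. For miR528, the 2 ata entries summed to 962 and 58.8 with DTT+TUDCA, 73.1 and 209 with DTT, and 17.3 and 11.9 in control.

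A share within a pool is free of the scaling between pools. The pair of mature miR398 forms below, and that of miR528 with miR398, were chosen with earlier results of these data known. Of the reads of tae-miR398 and osa-miR398a_1ss21TG together, tae-miR398 took 60.1% (exact 95% binomial interval 57.3% to 62.8%) and 4.02% (3.34% to 4.79%) in the DTT+TUDCA pools. With DTT it took 5.83% (4.61% to 7.25%) and 28.0% (24.8% to 31.5%), against 1.84% (0.845% to 3.46%) and 1.37% (0.710% to 2.38%) in control. The lowest treated pool, DTT+TUDCA pool 2, was higher than both control pools, but its interval overlapped with that of control pool 1. The intervals cover counting error only. The pools of each treated group differed by far more than that, while the intervals of the control pools overlapped.

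The ratio of miR528 to miR398 was much steadier. Relative to tae-miR398, ata-miR528-5p was at 1.15 and 0.941 times its level with DTT+TUDCA, 0.933 and 1.38 times with DTT, and 1.22 and 0.583 times in control. As a share of the pair it took between 36.8% (16.3% to 61.6%, 19 reads) in control pool 2 and 58.0% (53.5% to 62.4%, 488 reads) in DTT pool 2. The treatments overlap in this share, although the level of each of the 2 forms differed widely between pools.

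Passenger forms differed in their ratio to the mature form they were set against. ata-miR398f-5p_L+1R-1 exceeded tae-miR398 in all 4 treated pools, at 1.69 and 1.73 times its level with DTT+TUDCA and 1.21 and 1.88 times with DTT, and was below it in control, at 0.889 and 0.417 times. Each control ratio rests on 17 reads of the pair, and their share intervals of 23.0% to 72.2% and 10.3% to 56.0% reach into those of the treated pools. The 2 sequences are placed on different precursors, on 3DL and 3B, so their ratio is not that of 1 locus. Within the 3B precursor, tae-MIR398-p5 was at 0.0367 and 0.0169 times the level of tae-miR398 with DTT+TUDCA, 0.0533 and 0.0341 times with DTT, and 0.167 times in control pool 2, which rests on 2 reads against 12. Within the miR528 precursor, ata-miR528-3p was at 0.0285 and 0.0270 times the level of ata-miR528-5p with DTT+TUDCA and 0.0247 times in DTT pool 2.

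**Figure D2:**
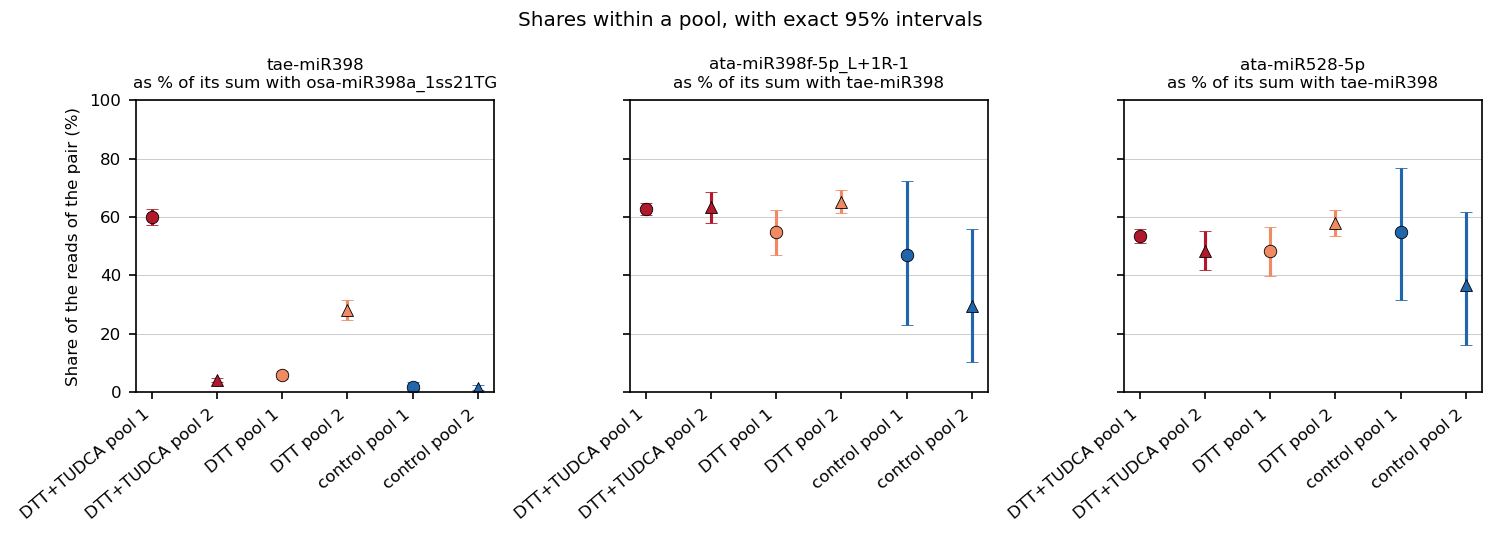
Share of the first form in the reads of a pair, in percent, for each of the 6 RNA pools, with exact 95% binomial intervals as bars. tae-miR398 takes 1.84% and 1.37% of its pair with osa-miR398a_1ss21TG in control and 4.02% to 60.1% in treated leaves, while ata-miR528-5p stays between 36.8% and 58.0% of its pair with tae-miR398.

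The first comparison, DTT against control, addresses the effect of the reducing agent. The ratio is that of the summed pools plus a pseudocount of 1, entries needed 20 summed normalized reads over the comparison, and 2-fold was the limit for a call. Of the 6 tae and ata members 3 were measured, and all 3 were at least 2-fold higher with DTT, with pools that did not overlap. Among the tae- and ata-named entries 12.1% were higher (16.8% of all entries), and 6.43% were higher with pools that did not overlap. Leaving out each pool in turn gave log2 ratios of 2.15 to 3.06 for tae-miR398, 3.12 to 4.66 for ata-miR398f-5p_L+1R-1 and 2.29 to 3.76 for ata-miR528-5p, around 2.68, 4.08 and 3.20 with all pools. The median of all 958 entries measured was 0.08.

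Of the 9 members with other prefixes 6 were measured, and 0 were higher and 0 lower by this limit, against 17.6% higher and 11.1% lower among entries with other prefixes. Their log2 ratios were between -0.85 for ath-miR398b-5p and 0.46 for osa-miR398a. ath-miR398b-5p and sbi-MIR398-p3_2ss5GA18AG had both DTT pools below both control pools, as had 19.7% of entries with other prefixes. Without DTT pool 1, 4 of these 6 were lower, and without control pool 2, 1 was higher. No share over other entries was computed with a pool left out, here or below. osa-miR398a_1ss21TG moved between log2 ratios of -1.55 and 0.19 as single pools were left out. Leaving out DTT pool 1, DTT pool 2, control pool 1 or control pool 2 did not change the 3 higher calls of the tae and ata members.

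The comparison of DTT+TUDCA with DTT addresses the effect of adding the chaperone. All 6 tae and ata members were at least 2-fold higher as deposited, but so were 82.7% of the tae- and ata-named entries (40.2% of all entries), and the pools overlapped for all 6. Higher levels with pools that did not overlap were found in 3.78% of the tae- and ata-named entries. Of the 6, tae-MIR398-p5, ata-miR398g-5p and ata-miR528-3p reached 20 summed reads only through the DTT+TUDCA pools and had to differ. Without DTT+TUDCA pool 1 the count was 0 higher and 1 lower of the 3 then measured, and the median log2 ratio of all 936 entries then measured was -0.18. The log2 ratio of tae-miR398 was then -0.89 instead of 1.94, that of ata-miR398f-5p_L+1R-1 -0.82 instead of 1.98, and that of ata-miR528-5p -1.27 instead of 1.84. Of the 6 measured members with other prefixes only osa-miR398a was higher, at a log2 ratio of 1.88 with overlapping pools, against 31.6% of entries with other prefixes. Its ratio was 0.24 without DTT+TUDCA pool 2 and 2.63 without DTT+TUDCA pool 1.

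The comparison of DTT+TUDCA with control uses the control pools of the DTT comparison. All 6 tae and ata members passed the 2-fold limit, but tae-MIR398-p5, ata-miR398g-5p and ata-miR528-3p again reached 20 summed reads only through DTT+TUDCA and had to differ. Of these 3, ata-miR398g-5p and ata-miR528-3p were listed at 0 in both control pools. The remaining 3, tae-miR398, ata-miR398f-5p_L+1R-1 and ata-miR528-5p, had control levels above 0 and pools that did not overlap. With all pools, 75% of the tae- and ata-named entries were higher (41.4% of all entries), and 12.5% were higher with pools that did not overlap. No such share was computed without DTT+TUDCA pool 1. Without DTT+TUDCA pool 1, 3 members were measured and all 3 were higher, with log2 ratios of 1.79 for tae-miR398, 3.26 for ata-miR398f-5p_L+1R-1 and 1.94 for ata-miR528-5p. With all pools these ratios were 4.62, 6.06 and 5.04. They were above those of DTT against control with all pools and below them without DTT+TUDCA pool 1. Among the 6 measured members with other prefixes, osa-miR398a was higher, with a log2 ratio of 2.34 and no overlap of pools, against 34.7% of entries with other prefixes (13.9% with pools that did not overlap), and was at 0.70 without DTT+TUDCA pool 2. The remaining 5 lay between -0.52 for ath-miR398b-5p and 0.11 for sbi-MIR398-p3_2ss5GA18AG.

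**Figure D3:**
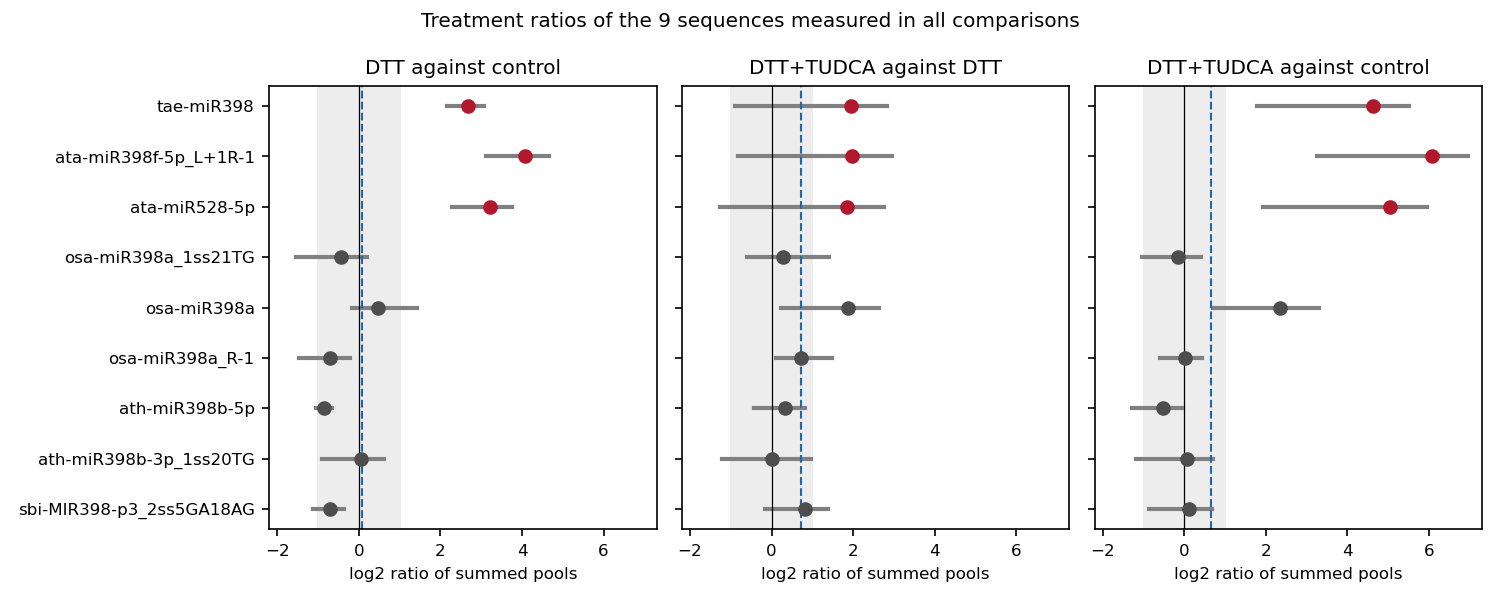
Points are the log2 ratios of summed pools for the 9 sequences measured in all 3 comparisons, red for tae and ata names; grey bars are the range when each pool is left out in turn, the shaded band is within 2-fold and the dashed line is the median of all entries measured. The bars of the top 3 sequences stay at 2.15 or above for DTT against control and cross 0 for DTT+TUDCA against DTT.

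In treated leaves, the pool differences of the 3 abundant wheat forms had the direction of the other tae- and ata-named entries. With DTT+TUDCA, the pool 1 to pool 2 ratio was 13.3 for tae-miR398, 13.0 for ata-miR398f-5p_L+1R-1 and 16.3 for ata-miR528-5p, beside the median of 13.0. With DTT it was 0.531, 0.342 and 0.359, beside the median of 0.411. In control it was 0.694, 1.48 and 1.45, beside the median of 0.515, so that ata-miR398f-5p_L+1R-1 and ata-miR528-5p ran the other way there. For osa-miR398a_1ss21TG the ratio ran the other way, at 0.371 with DTT+TUDCA and 3.34 with DTT, and was 0.514 in control.

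Dividing each pool by the median ratio of the 121 tae- and ata-named non-members above 0 in all pools, a scaling chosen after the values were seen, brought the pools of each treated group together for the 3 abundant wheat forms, and moved the control pools of ata-miR398f-5p_L+1R-1 and ata-miR528-5p apart. tae-miR398 was then at 172 and 146 with DTT+TUDCA, 141 and 115 with DTT, and 22.8 and 16.2 in control. ata-miR398f-5p_L+1R-1 was at 290 and 252 with DTT+TUDCA, 171 and 217 with DTT, and 20.3 and 6.73 in control. ata-miR528-5p was at 198 and 137 with DTT+TUDCA, 131 and 159 with DTT, and 27.9 and 9.42 in control. On this scale all DTT+TUDCA and DTT pools of these forms lay above both control pools.

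For DTT against control, 3 of 3 measured tae and ata members were higher with pools that did not overlap, against 9.42% of the tae- and ata-named entries, higher with or without that condition. Their log2 ratios were 2.69 for tae-miR398, 3.80 for ata-miR398f-5p_L+1R-1 and 2.93 for ata-miR528-5p. For DTT+TUDCA against control, 3 of 3 were higher with pools that did not overlap, against 10.1% of the tae- and ata-named entries (14.4% higher with any overlap), with log2 ratios of 2.99, 4.28 and 3.13 in the same order. For DTT+TUDCA against DTT, 0 of 4 measured were higher, against 4.86%, and the log2 ratios of these 3 forms were 0.31, 0.48 and 0.20. The same scaling pulled the treated pools of the most abundant rice-named form apart. osa-miR398a_1ss21TG was at 114 and 3479 with DTT+TUDCA, 2274 and 296 with DTT, and 1217 and 1163 in control.

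**Figure D4:**
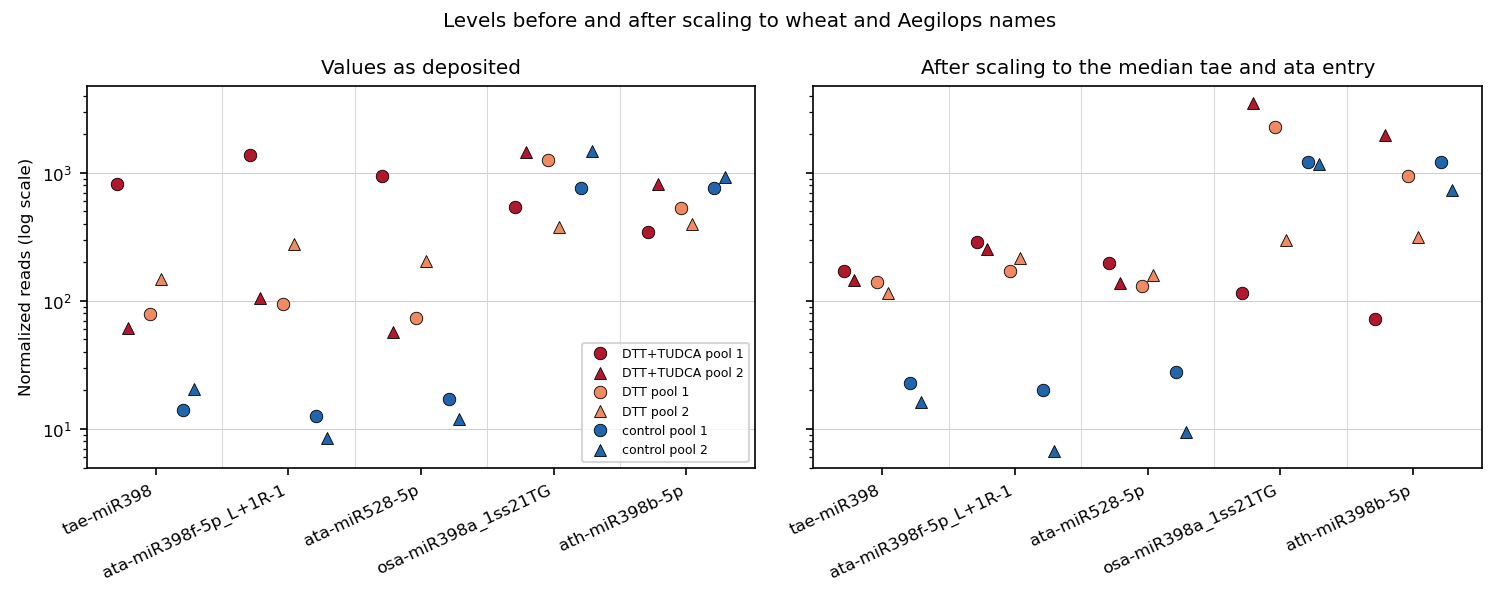
Normalized reads on a log scale of 5 sequences in each RNA pool, as deposited on the left and divided by the median ratio of 121 tae and ata entries on the right; circles are pool 1 and triangles pool 2. After scaling, tae-miR398 lies at 115 to 172 in the 4 treated pools and at 22.8 and 16.2 in control, while the DTT+TUDCA pools of osa-miR398a_1ss21TG are at 114 and 3479.

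**Figure D5:**
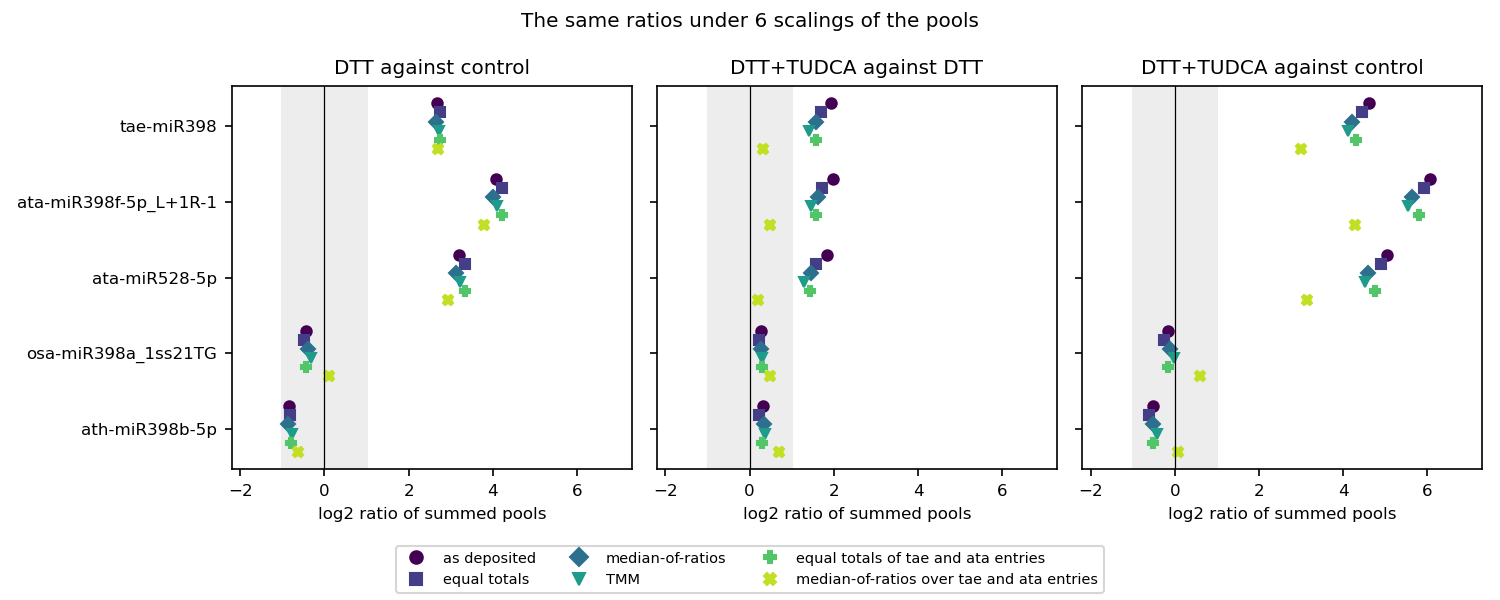
Log2 ratios of summed pools for the same 5 sequences under 6 scalings, with the band within 2-fold shaded. For DTT against control tae-miR398 stays between 2.65 and 2.75, and for DTT+TUDCA against DTT it is 1.94 as deposited and 0.31 with the median-of-ratios over tae and ata entries.

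The other families of the Arabidopsis copper response were set beside the members. Of 14 entries of miR397, miR408 and miR857, 4 had tae names. For DTT against control, 2 of 3 measured tae entries were higher and 0 lower, beside 12.1% of tae- and ata-named entries higher. Both, tae-MIR397-p5 and tae-miR397-5p, reached 20 summed reads only through the DTT pools and had to differ. The remaining one, tae-miR408_L-1, was not called, at a log2 ratio of 0.65. Of 5 with other prefixes 0 were higher and 0 lower, beside 17.6% and 11.1% of such entries. For DTT+TUDCA against DTT, 4 of 4 tae entries were higher, beside the 82.7% of tae- and ata-named entries. Of the 4 tae entries 1 had no overlap of pools, beside 3.78%. With other prefixes 1 of 6 was higher, beside 31.6% of such entries. For DTT+TUDCA against control, 4 of 4 tae entries were higher, beside 75%, and 1 of 6 with other prefixes, beside 34.7%. The pools did not overlap for these 4 tae entries, beside 12.5% of tae- and ata-named entries, and overlapped for the 1 with another prefix. Of the 4, tae-MIR397-p5, tae-miR397-5p and tae-MIR408-p5_1ss20GA reached 20 summed reads only through DTT+TUDCA and had to differ. tae-MIR408-p5_1ss20GA was listed at 0 in both control pools. tae-MIR397-p5, of the laccase-targeting family, was at 372 and 22.2 with DTT+TUDCA, 23.0 and 49.7 with DTT, and listed at 0 and 5.09 in control. tae-miR397-5p, of the same family, was at 169 and 11.9 with DTT+TUDCA, 8.36 and 25.9 with DTT, and listed at 0 and 3.39 in control. These forms had the pool order of the wheat miR398 forms in treated leaves. tae-MIR408-p5_1ss20GA was at 60.7 and 5.67 with DTT+TUDCA, 2.09 and 7.92 with DTT, and listed at 0 in both control pools. miR408 represses plantacyanin messages, and its form tae-miR408_L-1 was at 940 and 258 with DTT+TUDCA, 248 and 238 with DTT, and 115 and 193 in control. The form aof-miR408_L+1R-1, which carries an asparagus name, was at 228 and 548 with DTT+TUDCA, 583 and 192 with DTT, and 303 and 451 in control.

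Likeness to a member was measured as Pearson's r of log2(level + 1) over the 6 pools, among 451 distinct non-member profiles with a mean of at least 20. The points share libraries of unequal makeup, so r is a description. Nearest to tae-miR398 were tae-miR9653b_R+1 (r = 0.992), bdi-miR159a-3p_L-1R+1 (0.984), PC-5p-3969_547 (0.984), atr-MIR396d-p3_2ss11AC18AT_2 (0.979) and ath-MIR8175-p3_2ss16TC20AC (0.976). Nearest to ata-miR528-5p were atr-MIR396d-p3_2ss11AC18AT_2 (0.991), tae-miR9653b_R+1 (0.990), PC-5p-3969_547 (0.983), gma-miR4995_R+2 (0.968) and PC-3p-5163_420 (0.968). Between the 2 members themselves r was 0.986.

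Nearest to osa-miR398a_1ss21TG, looked up after its values were seen, were aly-miR157c-3p (0.979), aly-miR408-5p_L+1R-1 (0.971), ath-miR824-3p (0.964), aof-miR408_L+1R-1 (0.963) and mes-miR156a_L+2 (0.959), none of which has a tae or ata name. Its r with tae-miR398 was -0.54. tae-miR398 had r of -0.88 with ath-miR398b-5p, the abundant passenger form without a wheat position, and 0.977 with ata-miR398f-5p_L+1R-1.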

How the data were processed

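Small RNAs of leaves were prepared with TruSeq kits and sequenced single-end for 50 bases, per the labels' protocols. The values are signal, namely normalized reads deposited by the authors in 6 columns, 2 RNA pools for each of 3 samples, per the file headers. Not given in the sources used here were the aligner, counter, filters and normalization rule. Implied reads are values divided by the common step of a pool, which left 95.1% to 97.3% of values whole within 0.01 reads. Fractions remained, and with 1 sample per treatment no count test was run.

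Rows were reduced to distinct sequences, pools summed, entries under 20 summed normalized reads left out, and log2 ratios taken with a pseudocount of 1 and a 2-fold limit. Every member is named, beside the tae-named entries of the copper list and the 5 profiles nearest to tae-miR398 and ata-miR528-5p. Outside this rule, aof-miR408_L+1R-1 is named, as are the 5 profiles nearest to osa-miR398a_1ss21TG, looked up after its values were seen. The members, lists and within-pool pairs outside passenger and mature forms were chosen with earlier results of these data known. Shares carry exact 95% binomial intervals, for counting error only. Zeros carry no upper limit. The ratio step was tested on simulated pools. Alternatives were other scalings (TMM with 30% and 5% trimming), floors, pseudocounts, limits and pools left out. Python 3.11.15, numpy 2.4.6, pandas 2.3.3, scipy 1.17.1 and matplotlib 3.10.9 were used.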

Additional observations from a re-analysis of the deposited data

How the results depend on the processing

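No paired analysis was possible because each treatment is 1 sample and its pools carry no pairing across treatments. With DTT against control, the tae and ata members kept 3 higher calls under each scaling, each left-out pool, the floor of 100, the pseudocount of 5 and the 1.5-fold and 3-fold limits. They had 6 with no floor, but of those added ata-miR398g-5p and ata-miR528-3p were listed at 0 in both control pools. Calls against a listed 0 rest on the pseudocount. Members with other prefixes had 3 lower with the 1.5-fold limit, and 0 to 4 lower and 0 to 1 higher as pools were left out. No share over other entries was computed at the other floors, limits or pseudocount, with pools left out, or with the mean of log2 values. Of the other scalings, only the median-of-ratios over tae and ata entries has such shares. Counts here without a share are not a result about the members. With DTT+TUDCA against DTT, the 6 higher tae and ata members were 3 with a floor of 100, 0 where pools must not overlap, 0 with the median-of-ratios over tae and ata entries, 4 with the mean of the pools' log2 values (ata-miR528-5p at 0.92 and tae-MIR398-p5 at 0.50), and 0 to 6 higher and 0 to 1 lower as pools were left out. The other members had 4 higher with no floor, 3 with the 1.5-fold limit and 0 where pools must not overlap, and 1 to 4 higher and 0 to 1 lower as pools were left out. Those added with no floor, mtr-MIR398a-p5_1ss11AC, cpa-miR398 and bdi-miR528-5p_R+1, were listed at 0 in both DTT pools. With DTT+TUDCA against control, the 6 higher tae and ata members were 3 with a floor of 100, 3 with the median-of-ratios over tae and ata entries and 3 to 6 as pools were left out. The other members had 4 higher with no floor, and 0 to 1 higher and 0 to 3 lower as pools were left out. The same mtr, cpa and bdi forms were those added with no floor, and were listed at 0 in both control pools. The counts of 3 with a floor of 100 or that scaling for DTT+TUDCA against control are 3 of 3 measured.

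Among values past 2-fold, signs turned for DTT+TUDCA against DTT only. tae-MIR398-p5 had a log2 ratio of -0.35 with the median-of-ratios over tae and ata entries, and the cause was not tested. As pools were left out, tae-miR398 ranged from -0.89 to 2.84, ata-miR398f-5p_L+1R-1 from -0.82 to 2.95 and ata-miR528-5p from -1.27 to 2.75, each low value being without DTT+TUDCA pool 1. The median ratio over pools of tae-MIR398-p5 to tae-miR398 was 0.0354, and 0.101 with a pseudocount of 5. With the tae and ata passenger entries of miR398 summed, mostly ata-miR398f-5p_L+1R-1 of another precursor, the median ratio was 1.51. That of ata-miR528-3p to ata-miR528-5p was 0.0270 over the 3 pools with reads of both forms, 0.0124 with the listed zeros of the other pools counted as 0, 0.0366 with a pseudocount of 1 and 0.0846 with one of 5. The control reads of tae-miR398, ata-miR398f-5p_L+1R-1 and ata-miR528-5p, 5 to 12 per pool, limit their every ratio to control. The other tae and ata forms had 0 or 2 implied reads per control pool.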
